A study of Mus musculus with 8 samples.

Results

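The genes described here are 10 rows of a count table of 32499 genes: the classical MHC class I chains H2-K1 and H2-D1, their light chain B2m, the peptide loading genes Tap1, Tap2 and Tapbp, the immunoproteasome subunits Psmb8, Psmb9 and Psmb10, and H60b, which encodes a ligand of the natural killer receptor NKG2D. They were taken by symbol as named genes of the class I pathway, and all 10 were found in the table. The 10 genes passed the filter on low counts that left 12970 tested genes, but H60b passed it only through the TCF3-ZNF384 libraries, so its test had to give a difference there and no p is given for it. RNA came from cultured pre-B cells of C57BL/6 mice without Arf (Arf-/-), the tumour suppressor made from the Cdkn2a locus, and every group carried that deletion.

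The cells had been transduced with lentivirus, sorted for GFP, and fell into 4 groups of 2 libraries. The first expressed HA-tagged TCF3-ZNF384 and the second HA-tagged TAF15-ZNF384, both fusions of the zinc finger factor ZNF384 found in acute leukaemia. The third expressed HA-tagged ZNF384 without a fusion partner (ZNF384 wild type), and the fourth carried the empty vector. The series design calls the replicates biological. The labels do not say whether a group was 1 clone or a pool, so p-values measure the spread between these libraries, and fewer cells of a kind cannot be told apart from less RNA per cell.

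Totals ran from 9381954 to 41483660 counts per library. Zfp384, the mouse gene of ZNF384, had 511 and 450.2 CPM (counts normalised to TMM-scaled library size) in TCF3-ZNF384 libraries, 185 and 162 CPM in TAF15-ZNF384 libraries, 51.1 and 90.2 CPM in ZNF384 wild-type libraries, and 24 and 21.6 CPM with the empty vector. It was thus higher in each construct group than with the empty vector, and higher with either fusion than with wild-type ZNF384. The pre-B cell markers Cd79a, Vpreb1 and Pax5 were present in every library, at 547 to 746 CPM, 329 to 612 CPM and 926 to 1142 CPM, while 6 T and NK cell markers summed to at most 1.08 CPM. A set of 5 abundant non-coding genes took 18.5 and 24.5% of the counts with TCF3-ZNF384, 28.1 and 29.6% with TAF15-ZNF384, 10.9 and 12.5% with wild-type ZNF384 and 27.2 and 33.2% with the empty vector. Their share was thus lowest in the group in which class I chains were also lowest. The fusion over wild-type values of H2-K1, H2-D1 and B2m stayed past the threshold when these 5 genes were taken out. Taking them out does not remove other differences between libraries that may go with their share. Any link of that share to the class I values was not tested.

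Class I molecules show peptides from proteins made inside the cell to CD8 T cells. The proteasome cuts proteins into peptides, and the immunoproteasome subunits replace the constitutive catalytic subunits to favour peptides that fit class I. The TAP transporter carries the peptides into the endoplasmic reticulum, tapasin holds TAP and the empty chain together, and the loaded chain leaves with beta-2-microglobulin. NK cells read the same surface from the other side: class I engages inhibitory receptors, while ligands such as H60b engage NKG2D, an activating receptor.

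The bases upstream of the class I genes are shown because these genes moved together in the results that follow. RefSeq windows of 250 bases upstream of the start (GRCm38.p6) were available for 8 of the 10 genes. Each matched once on the mm9 chromosome of its gene, and other chromosomes were not searched. Capitals mark matches on either strand to GGGA and CC set 4 bases apart (kappaB-like), GAANNGAAA (like an interferon-stimulated response element, ISRE), TGACG (like the X2 box that NLRC5-RFX-CREB complexes use) and CCAAT. The kappaB-like matches on the 2 strands overlap. The H2-K1 window is at chr17:34137293-34137542 on the minus strand and the B2m window, less its last base, at chr2:121973173-121973421 on the plus strand. For H2-K1 the most upstream of 2 RefSeq starts was used, 14 bases upstream of the GENCODE vM1 start. For H2-D1 (chr17:35399868-35399897), H2-Q4 (chr17:35516388-35516417) and H2-Q6 (chr17:35561622-35561651), all on the plus strand, only the 30 bases across the kappaB-like and ISRE-like matches are given. The H2-D1 bases lie upstream of its RefSeq start but inside the vM1 gene model, whose start is 364 bases further upstream than that of RefSeq.
H2-K1: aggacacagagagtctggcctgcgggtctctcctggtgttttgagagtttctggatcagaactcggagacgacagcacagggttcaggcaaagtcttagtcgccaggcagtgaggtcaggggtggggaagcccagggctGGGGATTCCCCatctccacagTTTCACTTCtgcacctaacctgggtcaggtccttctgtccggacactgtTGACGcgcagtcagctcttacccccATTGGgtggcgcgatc
B2m: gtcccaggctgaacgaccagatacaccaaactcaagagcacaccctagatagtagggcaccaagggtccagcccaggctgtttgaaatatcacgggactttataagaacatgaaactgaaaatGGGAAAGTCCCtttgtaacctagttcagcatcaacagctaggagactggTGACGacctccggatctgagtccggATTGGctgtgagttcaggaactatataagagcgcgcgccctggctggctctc
H2-D1: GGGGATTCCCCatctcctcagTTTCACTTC
H2-Q4: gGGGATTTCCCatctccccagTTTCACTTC
H2-Q6: GGGGATTCCCCatctccccagTTTCACTTC

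The pairing of a kappaB-like and an ISRE-like match was laid out alike in the 4 chain genes shown. In H2-K1 the kappaB-like match was 111 to 101 bases and the ISRE-like match 90 to 82 bases upstream of the RefSeq start. Of the chain windows not shown, that of H2-Q7 held both kinds of match. The H2-Q10 window held the ISRE-like letters but no kappaB-like, TGACG or CCAAT match, and H2-Q10 also rose with either fusion over wild-type ZNF384. Any link of the letters to the changes was not tested. At the ungapped offset with the most matches, the H2-K1 window was identical to the H2-D1 window at 87.4% of 190 bases, to H2-Q6 at 75% of 188 bases and to H2-Q4 at 63.1% of 187 bases. B2m held the kappaB-like, TGACG and CCAAT letters but no GAANNGAAA. It did hold a related pattern, GAAA and GAAA set 2 bases apart, 139 to 130 bases upstream, which was searched for after the windows had been seen and is not in capitals. Over the 8 genes with a window, the kappaB-like letters were in 3, the ISRE-like letters in 2, TGACG in 5 and CCAAT in 6. The letters AAAAAAA, also searched for, were among these only in the Psmb10 window, against 10.8% of all upstream windows. The windows of Tap1 (chr17:34324251-34324500) and Psmb9 (chr17:34324276-34324525) overlap on opposite strands. The same TGACG and the same CCAAT are thus counted for both genes, and the 8 windows are not independent. Of all 32851 upstream windows of the same length, 17.6% held the kappaB-like letters, 6.31% the ISRE-like letters, 17.8% TGACG and 33.8% CCAAT. The related pattern was in 1 of the 8 windows and in 2.98% of all windows, and either ISRE-like pattern was in 3 of the 8. A match describes the letters and does not show a factor bound there.

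Genes were called at an adjusted p under 0.05 (edgeR quasi-likelihood F test, 2-sided, Benjamini-Hochberg over the 12970 tested genes), and "rose" and "fell" are kept for calls. With TCF3-ZNF384 over wild-type ZNF384, 5 of the 10 genes rose and 3 fell, where 22.2% of all tested genes rose and 23.4% fell. Without H60b, whose call follows from the filter, 4 of 9 rose and 3 fell. With TAF15-ZNF384 over wild-type ZNF384, 4 rose and none fell, where 15.4% of all tested genes rose and 17.9% fell. Over the empty vector, 3 rose and 1 fell with TCF3-ZNF384, against 16.2% and 17.0% of all tested genes, and 2 of 9 rose without H60b. With wild-type ZNF384 over the empty vector 3 fell and none rose, where 9.87% of all tested genes fell and 10.8% rose. With TAF15-ZNF384 over the empty vector, edgeR, DESeq2 and limma-voom each called 0 of the 10, where 11.0% of all tested genes were called by edgeR, and 3 of the 10 had an unadjusted p under 0.05. Of all tested genes 26.8% had an unadjusted p under 0.05 there, so 3 of 10 is near the background, and 5.01% were called higher and 6.01% lower. Between TCF3-ZNF384 and TAF15-ZNF384, 5.91% of all tested genes were higher and 4.17% lower. Of the 9 members without H60b, edgeR, DESeq2 and limma-voom each called 0 there. An unadjusted p under 0.05 was found for 2 of these 9 and for 23.9% of all tested genes. The comparisons share libraries and so are not independent of each other. The median log2 fold change over these 9 genes was 0.19 for TCF3-ZNF384 over wild type and 0.27 for TAF15-ZNF384 over wild type, against 0.00 and -0.02 over all tested genes.

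**Figure D1:**
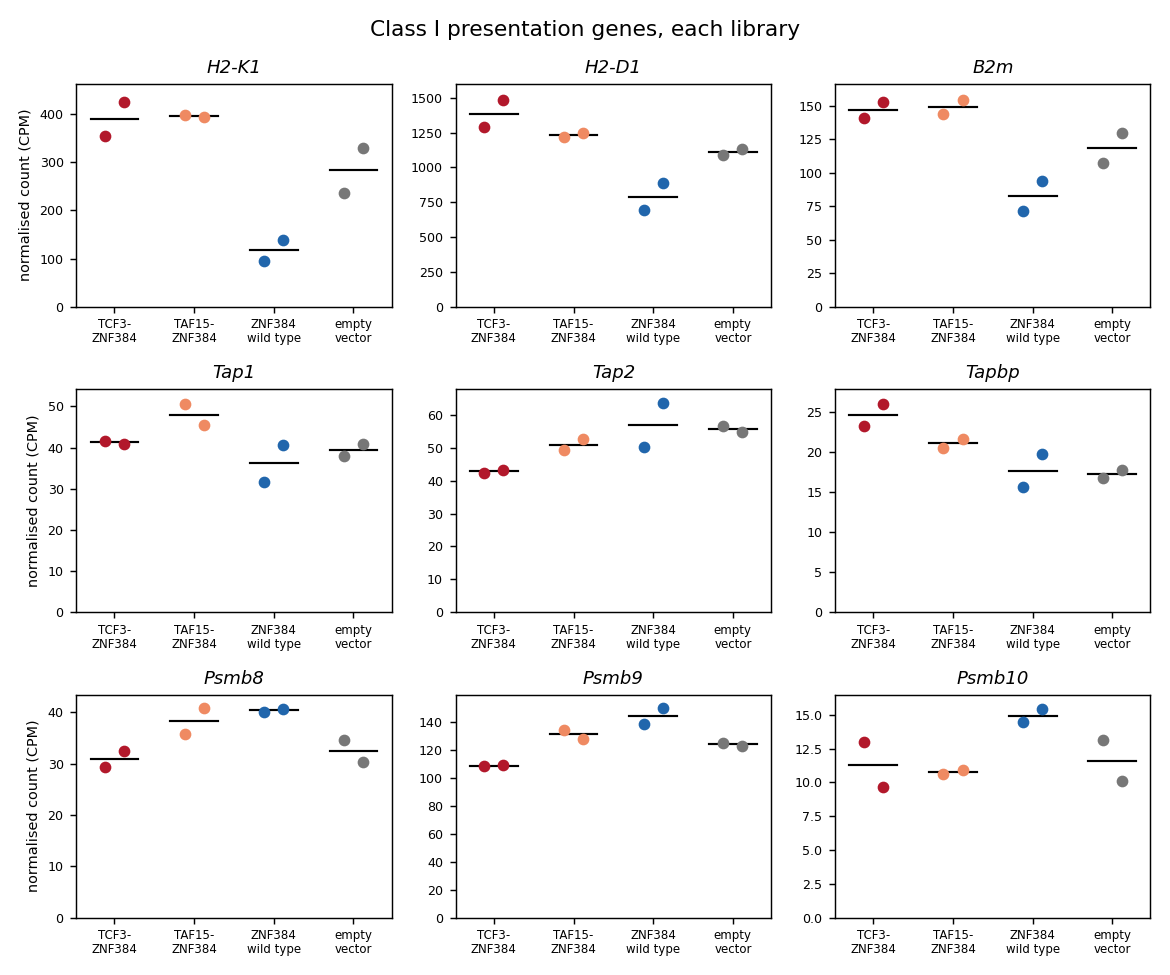
Normalised counts (CPM, linear axes from 0) of the 9 class I presentation genes in each of the 8 libraries, with the group mean as a line. H2-K1, H2-D1 and B2m are lowest in both ZNF384 wild-type libraries, while Tap2, Psmb8, Psmb9 and Psmb10 have no such low in that group.

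The class I chains and B2m were the members with the clearest pattern: they were high with both fusions, intermediate with the empty vector and low with wild-type ZNF384. H2-K1 (chr17:34132962-34137278, minus strand), which encodes the K heavy chain, had 355 and 425 CPM with TCF3-ZNF384, 398 and 394 CPM with TAF15-ZNF384, 95.4 and 139.5 CPM with wild-type ZNF384, and 237 and 329.5 CPM with the empty vector. The wild-type libraries lay below all the others. H2-K1 rose with TCF3-ZNF384 over wild-type ZNF384 by 1.74 ± 0.20 (log2 fold change ± SE, adjusted p = 0.000165), and the TAF15-ZNF384 rise was 1.76 ± 0.21 (adjusted p = 0.000309). It fell by 1.27 ± 0.20 with wild-type ZNF384 relative to the empty vector (adjusted p = 0.00273), a call that was lost without ZNF384 wild-type replicate 1 (log2 fold change -1.04, adjusted p = 0.0558). Set against the empty vector, H2-K1 changed by 0.46 ± 0.20 (log2, adjusted p = 0.1075) in TCF3-ZNF384 cells and by 0.48 ± 0.20 (adjusted p = 0.161) in TAF15-ZNF384 cells, and neither was called. Without empty vector replicate 2 these were 0.72 (adjusted p = 0.0187) and 0.74 (adjusted p = 0.0449). The fusions were not told apart by H2-K1, with a log2 difference of -0.02 ± 0.20 for TCF3-ZNF384 minus TAF15-ZNF384.

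H2-D1 (chr17:35399675-35404444, plus strand), the D heavy chain gene, was the most abundant member and was likewise higher with both fusions than with the empty vector and lowest with wild-type ZNF384, in a narrower range. It had 1288 and 1486 CPM with TCF3-ZNF384, 1220.4 and 1250.4 CPM with TAF15-ZNF384, 697 and 885 CPM with wild-type ZNF384, and 1086 and 1135 CPM with the empty vector. The wild-type libraries again lay below all others. H2-D1 rose by 0.81 ± 0.12 with TCF3-ZNF384 over wild-type ZNF384 (adjusted p = 8.42e-05), and the TAF15-ZNF384 rise over wild-type ZNF384 was 0.64 ± 0.12 (adjusted p = 0.000981). It fell by 0.49 ± 0.12 with wild-type ZNF384 relative to the empty vector (adjusted p = 0.00907). That call was lost without empty vector replicate 2 (log2 fold change -0.46, adjusted p = 0.0894). Over the empty vector it rose by 0.32 ± 0.12 with TCF3-ZNF384, close to the threshold (adjusted p = 0.0472), and the call held in 8 of 16 alternatives. It was lost without TCF3-ZNF384 replicate 1 (0.42) or 2 (0.21), TAF15-ZNF384 replicate 1 (0.31) or 2 (0.31), and empty vector replicate 1 (0.28) or 2 (0.35), with adjusted p from 0.0581 to 0.357. It was also missed by limma-voom (adjusted p = 0.0509) and when the 5 non-coding genes were taken out (adjusted p = 0.0517). The TAF15-ZNF384 change over the empty vector was 0.15 ± 0.12 (adjusted p = 0.431).

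B2m (chr2:121973422-121978819, plus strand) lies outside the MHC and encodes beta-2-microglobulin, the light chain shared by all class I molecules. It had 141 and 152 CPM with TCF3-ZNF384, 144 and 154 CPM with TAF15-ZNF384, 71.6 and 93.5 CPM with wild-type ZNF384, and 108 and 129 CPM with the empty vector. B2m thus followed the heavy chains, with its wild-type libraries lowest. It rose by 0.83 ± 0.13 with TCF3-ZNF384 over wild-type ZNF384 (adjusted p = 0.000166), and the TAF15-ZNF384 rise was 0.86 ± 0.13 (adjusted p = 0.000277). With wild-type ZNF384 relative to the empty vector it fell by 0.52 ± 0.13 (adjusted p = 0.0111), a call lost without empty vector replicate 2 (log2 fold change -0.38, adjusted p = 0.1595). B2m changed over the empty vector by 0.31 ± 0.13 (log2) with TCF3-ZNF384 (adjusted p = 0.0815) and 0.33 ± 0.13 with TAF15-ZNF384 (adjusted p = 0.117). Leaving out ZNF384 wild-type replicate 1 or 2 from the fit moved these to adjusted p of 0.00672 and 0.0067 with TCF3-ZNF384 and 0.00858 and 0.00848 with TAF15-ZNF384, at log2 fold changes of 0.31 and 0.34. The fusion over wild-type calls of H2-K1, H2-D1 and B2m held in all 16 alternatives that were run.

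**Figure D2:**
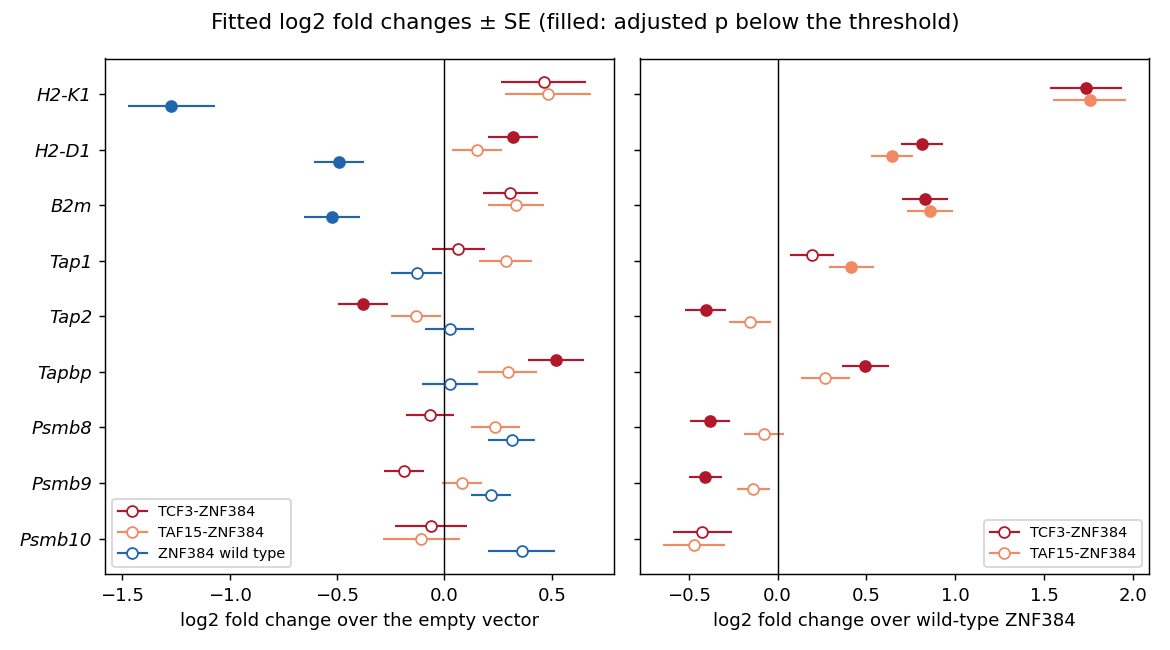
Fitted log2 fold changes (points) with their standard errors (bars) of the 9 class I presentation genes, over the empty vector at left and over wild-type ZNF384 at right; filled points passed the threshold. H2-K1, H2-D1 and B2m lie left of 0 with wild-type ZNF384 and right of 0 with both fusions, while no loading or immunoproteasome gene is further than 0.52 from 0.

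H2-K1 changed more than H2-D1 between the fusions and wild-type ZNF384, which is visible without any scaling of libraries. For every 100 reads of H2-D1 there were 27.6 and 28.6 reads of H2-K1 with TCF3-ZNF384, 32.6 and 31.5 with TAF15-ZNF384, 13.7 and 15.8 with wild-type ZNF384, and 21.8 and 29.0 with the empty vector. The fusion libraries did not overlap with the wild-type libraries, but TCF3-ZNF384 overlapped with the empty vector. Against 100 reads of B2m there were 916 and 975 reads of H2-D1 with TCF3-ZNF384, 847 and 810.2 with TAF15-ZNF384, 973 and 946 with wild-type ZNF384, and 1010 and 878 with the empty vector. This ratio varied less across groups than that of H2-K1 to H2-D1. The TAF15-ZNF384 libraries lay below all the others, and the other groups overlapped. These are ratios of reads and not of molecules, since the genes differ in length, and the pairs were chosen after the values were known. Per kilobase of annotated exon, H2-D1 stood highest of the members in each group, at 536, 477, 306 and 429 CPM per kb with TCF3-ZNF384, TAF15-ZNF384, wild-type ZNF384 and the empty vector. B2m had 170.3, 174, 96.0 and 138 CPM per kb and H2-K1 149.6, 152, 45.0 and 109 CPM per kb in the same order of groups. B2m and H2-K1 were thus the next highest members in every group. Class I chains share sequence: 7.29% of the 50-base stretches of H2-K1 coding transcripts and 12.8% of those of H2-D1 were also in another gene's transcripts, and none of those of B2m were. How the authors' counting treated such reads is not given in the sources used here.

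Part of the other class I chains moved as the classical ones did. Of 21 such genes listed, 16 were in the table and 12 were tested. With TCF3-ZNF384 over wild-type ZNF384 6 of the 12 rose and none fell (22.2% and 23.4% of all tested genes), and with TAF15-ZNF384 over wild-type ZNF384 7 rose and none fell (15.4% and 17.9%). The 7 included H2-Q1 and H2-Q2, and neither was among the 6. Both passed the filter on low counts only through fusion libraries, so their rises follow from the filter. H2-Q1 had 3 and 9 counts with TAF15-ZNF384 and 2 and 4 with wild-type ZNF384. H2-Q2 had 8 and 7 against 6 and 7. With wild-type ZNF384 relative to the empty vector 4 fell and 1 rose (9.87% and 10.8%). H2-Q4, a Qa region chain gene, had 422 and 481 CPM with TCF3-ZNF384, 382 and 376 CPM with TAF15-ZNF384, 132 and 159.9 CPM with wild-type ZNF384, and 293 and 325 CPM with the empty vector. Its groups did not overlap. Relative to wild-type ZNF384, H2-Q4 rose by 1.63 ± 0.11 in TCF3-ZNF384 cells (adjusted p = 1.18e-07) and by 1.38 ± 0.11 in TAF15-ZNF384 cells (adjusted p = 1.97e-06). It fell by 1.08 ± 0.11 with wild-type ZNF384 relative to the empty vector (adjusted p = 2.4e-05).

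H2-Q6, another Qa region gene, averaged 743 ± 98 CPM with TCF3-ZNF384, 709 ± 9.1 CPM with TAF15-ZNF384, 279 ± 46 CPM with wild-type ZNF384 and 580.1 ± 69 CPM with the empty vector (SD, n = 2 each). H2-Q10, which encodes a chain known mainly from liver, was at lower counts, with 18.5 ± 0.22, 16.4 ± 0.77, 7.95 ± 0.80 and 12.8 ± 1.6 CPM in the same order of groups. Both genes rose with either fusion over wild-type ZNF384 and fell with wild-type ZNF384 relative to the empty vector. H2-Q6 and H2-Q7 shared 22.7 and 24.1% of their 50-base stretches with other genes' transcripts, most of them with each other, so reads could be split between them.

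Not every class I chain followed. Cd1d1, which encodes the lipid-presenting chain CD1d, rose with TCF3-ZNF384 by 0.60 ± 0.11 (adjusted p = 0.00101) and with wild-type ZNF384 by 0.34 ± 0.11 (adjusted p = 0.0385) over the empty vector. H2-M3, whose product presents formylated peptides, fell by 0.37 ± 0.10 with TCF3-ZNF384 relative to the empty vector (adjusted p = 0.0123). H2-T22, a ligand gene for some gamma-delta T cell receptors, followed in part. It rose with TCF3-ZNF384 over wild-type ZNF384 (0.47 ± 0.13, adjusted p = 0.0106). With wild-type ZNF384 relative to the empty vector it was not called (-0.05 ± 0.13, adjusted p = 0.808). H2-T22 was the only one of the 12 called with TAF15-ZNF384 over the empty vector (0.57 ± 0.14, adjusted p = 0.0177). In that comparison 7 of the 12 had an unadjusted p under 0.05, against 26.8% of all tested genes. Over the empty vector, TCF3-ZNF384 had 7 higher and 1 lower of the 12, where 16.2% and 17.0% of all tested genes were. Between TCF3-ZNF384 and TAF15-ZNF384 edgeR called 0 of the 12, as did DESeq2 and limma-voom, and 2 had an unadjusted p under 0.05; without either ZNF384 wild-type library in the fit 2 were called. Between the fusions 23.9% of all tested genes had an unadjusted p under 0.05. The log2 differences of the 12 between the fusions ran from -0.36 to 0.42, with a median of 0.12 against 0.00 over all tested genes.

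**Figure D3:**
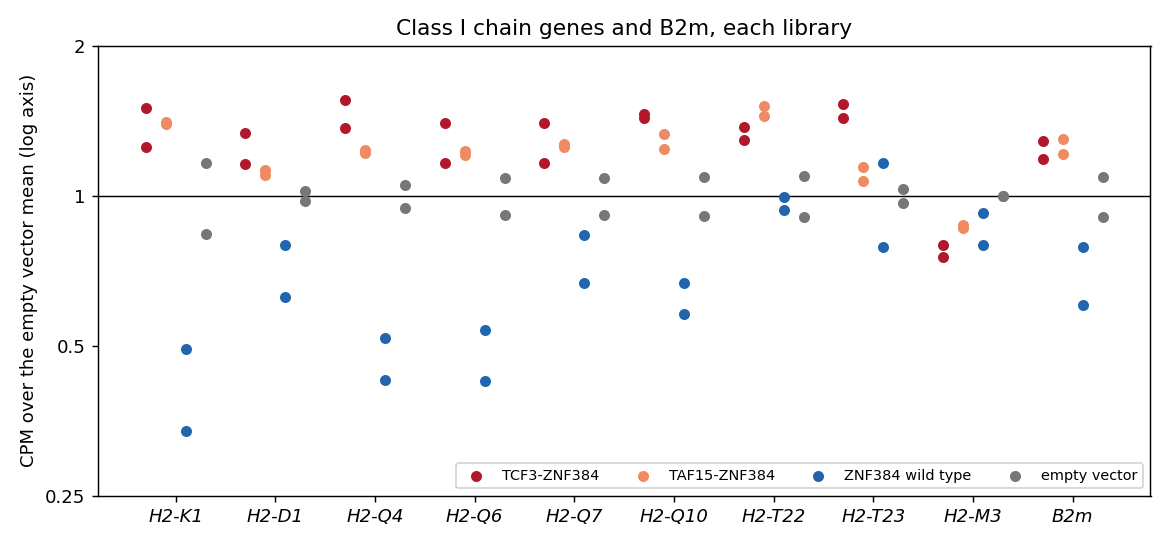
CPM of 9 class I chain genes and B2m in each library, divided by the mean of the empty vector libraries (log axis; 1 is that mean). The wild-type ZNF384 points lie lowest at H2-K1, H2-Q4 and H2-Q6, and the fusion points of these genes lie above 1; H2-M3 has its fusion points below 1. H2-Q7 and H2-T23 were added after their values were seen.

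The peptide loading members differed from each other in their order of groups, and none was called with wild-type ZNF384 over the empty vector when all libraries were used. Tap1 (chr17:34324498-34334170, plus strand) and Tap2 (chr17:34340472-34353266, plus strand) encode the subunits of the TAP transporter. Tap1 had 41.6 and 40.9 CPM with TCF3-ZNF384, 50.7 and 45.4 CPM with TAF15-ZNF384, 31.6 and 40.7 CPM with wild-type ZNF384, and 38.0 and 40.8 CPM with the empty vector. It averaged highest with TAF15-ZNF384 and lowest with wild-type ZNF384, as H2-K1 and B2m did, but the wild-type libraries overlapped with the empty vector ones. Tap1 rose by 0.41 ± 0.13 with TAF15-ZNF384 over wild-type ZNF384 (adjusted p = 0.0208), a call lost without TAF15-ZNF384 replicate 1 (0.32, adjusted p = 0.187) or ZNF384 wild-type replicate 1 (0.26, adjusted p = 0.109). Relative to the empty vector Tap1 had a change of 0.29 ± 0.13 in TAF15-ZNF384 cells (adjusted p = 0.1615), past the threshold when ZNF384 wild-type replicate 1 (adjusted p = 0.0327) or 2 (adjusted p = 0.03325) was left out. With TCF3-ZNF384 over wild-type ZNF384 it was 0.19 ± 0.12 (adjusted p = 0.217), and without ZNF384 wild-type replicate 2 it was 0.40 (adjusted p = 0.00512). With wild-type ZNF384 over the empty vector it was -0.13 ± 0.12 (adjusted p = 0.481), and without the same library it was -0.33 (adjusted p = 0.0234).

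Tap2 ran the other way and was lowest with TCF3-ZNF384. It had 42.3 and 43.3 CPM with TCF3-ZNF384, 49.3 and 52.6 CPM with TAF15-ZNF384, 50.3 and 63.6 CPM with wild-type ZNF384, and 56.7 and 55.0 CPM with the empty vector. The TCF3-ZNF384 libraries lay below all the others. Tap2 fell by 0.38 ± 0.12 with TCF3-ZNF384 relative to the empty vector (adjusted p = 0.0218) and by 0.41 ± 0.12 relative to wild-type ZNF384 (adjusted p = 0.0112). The first call was lost without TCF3-ZNF384 replicate 1 (-0.36) or 2 (-0.40) and without empty vector replicate 1 (-0.37) or 2 (-0.41), with adjusted p from 0.0688 to 0.123. The second was lost without TCF3-ZNF384 replicate 1 (-0.37) or 2 (-0.41) and without ZNF384 wild-type replicate 2 (-0.21), with adjusted p from 0.0690 to 0.0834. With TAF15-ZNF384 over wild-type ZNF384 the log2 fold change was -0.16 ± 0.12 (adjusted p = 0.324), and without ZNF384 wild-type replicate 1 it was -0.30 (adjusted p = 0.0334). Of the annotated exon bases of Tap2, 18.5% overlap with genes on the opposite strand (Gm15821 and Gm20496), and whether the count step used strand is not given in the sources used here.

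The balance of the TAP subunits differed between fusions and controls without overlap. For every 100 reads of Tap2 there were 98.3 and 94.3 reads of Tap1 with TCF3-ZNF384, 103 and 86.3 with TAF15-ZNF384, 63.0 and 64.0 with wild-type ZNF384, and 67.0 and 74.3 with the empty vector. The lowest fusion library thus stood above the highest control library. The tapasin gene Tapbp set against Tap2 gave 54.8 and 60 reads per 100 with TCF3-ZNF384, 41.7 and 41.2 with TAF15-ZNF384, 31.1 and 31.0 with wild-type ZNF384, and 29.5 and 32.3 with the empty vector. Here TCF3-ZNF384 was highest, TAF15-ZNF384 next, and the controls overlapped. These ratios were not tested.

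Tapbp (chr17:34052844-34066235, plus strand), which encodes tapasin, was highest with TCF3-ZNF384. It had 23.2 and 26 CPM with TCF3-ZNF384, 20.5 and 21.7 CPM with TAF15-ZNF384, 15.6 and 19.7 CPM with wild-type ZNF384, and 16.7 and 17.7 CPM with the empty vector. Both fusions lay above both controls in every library. Tapbp rose with TCF3-ZNF384 by 0.52 ± 0.13 over the empty vector (adjusted p = 0.00781) and by 0.49 ± 0.13 over wild-type ZNF384 (adjusted p = 0.00704). The first call was lost without TCF3-ZNF384 replicate 2 (0.42, adjusted p = 0.109) or empty vector replicate 1 (0.47, adjusted p = 0.06415). The second was lost without TCF3-ZNF384 replicate 2 (0.41, adjusted p = 0.0900) or ZNF384 wild-type replicate 1 (0.34, adjusted p = 0.0540). With TAF15-ZNF384 the log2 fold change was 0.29 ± 0.14 over the empty vector (adjusted p = 0.1915) and 0.27 ± 0.14 over wild-type ZNF384 (adjusted p = 0.148). Without ZNF384 wild-type replicate 2 the last value was 0.46 (adjusted p = 0.0127).

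Other genes of peptide loading and trimming, 12 listed and all tested, were called in both directions. With TCF3-ZNF384 over wild-type ZNF384 2 rose and 4 fell, where 22.2% and 23.4% of all tested genes did. With TAF15-ZNF384 over wild-type ZNF384 3 rose and 5 fell, where 15.4% and 17.9% of all tested genes did. With wild-type ZNF384 over the empty vector 3 rose and 3 fell, where 10.8% and 9.87% did. Canx, which encodes the chaperone calnexin, averaged 78.0 ± 5.8 CPM with TCF3-ZNF384, 89.1 ± 7.4 CPM with TAF15-ZNF384, 159 ± 21 CPM with wild-type ZNF384 and 124 ± 8.1 CPM with the empty vector (SD, n = 2 each). Pdia3, which encodes the disulphide isomerase of the loading complex, averaged 391 ± 13, 354 ± 9.0, 703 ± 178 and 525 ± 31 CPM in the same order of groups. Canx and Pdia3 fell with both fusions relative to both controls and rose with wild-type ZNF384 over the empty vector, the opposite of the chains they help to fold. These rises were near the threshold, at 0.35 ± 0.11 for Canx and 0.42 ± 0.14 for Pdia3 (adjusted p = 0.0385 and 0.0426). Pdia3 had 829 and 577 CPM with wild-type ZNF384 and 547 and 503 CPM with the empty vector. Tapbpl, which encodes the tapasin-like editor TAPBPR, rose by 0.46 ± 0.11 with TCF3-ZNF384 and by 0.34 ± 0.12 with TAF15-ZNF384 over wild-type ZNF384 (adjusted p = 0.0046 and 0.0394), and fell by 0.39 ± 0.11 with wild-type ZNF384 relative to the empty vector (adjusted p = 0.0210). Rab43 changed more, in the directions of H2-K1 and H2-D1. It rose by 1.96 ± 0.21 with TCF3-ZNF384 over wild-type ZNF384 (adjusted p = 2.4e-05). Over the empty vector Rab43 rose by 1.24 ± 0.205 with TCF3-ZNF384 and by 0.93 ± 0.22 with TAF15-ZNF384 (adjusted p = 0.000802 and 0.0190). With wild-type ZNF384 it fell by 0.72 ± 0.21 relative to the empty vector (adjusted p = 0.0351).

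The immunoproteasome genes changed less than the chains and were highest on average with wild-type ZNF384. Psmb8 (chr17:34334666-34338399, plus strand) encodes the subunit LMP7. It had 29.5 and 32.4 CPM with TCF3-ZNF384, 35.8 and 40.8 CPM with TAF15-ZNF384, 40.1 and 40.7 CPM with wild-type ZNF384, and 34.6 and 30.4 CPM with the empty vector. TAF15-ZNF384 overlapped with wild-type ZNF384, and TCF3-ZNF384 with the empty vector. Psmb8 fell by 0.38 ± 0.11 with TCF3-ZNF384 relative to wild-type ZNF384 (adjusted p = 0.0127), a call lost without TCF3-ZNF384 replicate 1 (-0.30, adjusted p = 0.132). With wild-type ZNF384 over the empty vector it had a log2 fold change of 0.31 ± 0.11 (adjusted p = 0.0546), which limma-voom put at an adjusted p of 0.0472.

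Psmb9 (chr17:34318932-34324709, minus strand), which encodes LMP2 and lies head to head with Tap1, had 109 and 109 CPM with TCF3-ZNF384, 135 and 128 CPM with TAF15-ZNF384, 139 and 150.25 CPM with wild-type ZNF384, and 125 and 123 CPM with the empty vector. The groups did not overlap, with TCF3-ZNF384 lowest and wild-type ZNF384 highest. It fell by 0.41 ± 0.09 with TCF3-ZNF384 relative to wild-type ZNF384 (adjusted p = 0.00275), and this call held in all 16 alternatives. The log2 difference of TCF3-ZNF384 minus TAF15-ZNF384 was -0.27 ± 0.09 (adjusted p = 0.0887). Without ZNF384 wild-type replicate 1 or 2 in the fit it passed the threshold (adjusted p = 0.00974 and 0.00943), as did the log2 fold change of -0.19 with TCF3-ZNF384 over the empty vector (adjusted p = 0.0327 and 0.0321, against 0.1345 with all libraries). With wild-type ZNF384 over the empty vector it was 0.22 ± 0.09 (adjusted p = 0.110), and without ZNF384 wild-type replicate 1 it was 0.26 (adjusted p = 0.0307). The exons of Psmb9 and Tap1 overlap on opposite strands over 212 bases, 5.79% of the Psmb9 exon bases and 3.87% of those of Tap1.

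Psmb10 (chr8:108459628-108462292, minus strand) encodes the subunit MECL-1 and lies outside the MHC. It had 13.0 and 9.64 CPM with TCF3-ZNF384, 10.7 and 10.9 CPM with TAF15-ZNF384, 14.5 and 15.4 CPM with wild-type ZNF384, and 13.1 and 10.1 CPM with the empty vector. The wild-type libraries were the highest and the other groups overlapped. The log2 fold change was -0.42 ± 0.17 with TCF3-ZNF384 (adjusted p = 0.0507) and -0.47 ± 0.18 with TAF15-ZNF384 (adjusted p = 0.0535) over wild-type ZNF384, both just outside the threshold. Without empty vector replicate 1 or 2 in the fit they came inside it, at adjusted p of 0.0408 and 0.0400 with TCF3-ZNF384 and 0.0432 and 0.0427 with TAF15-ZNF384. Without TCF3-ZNF384 replicate 1 the TCF3-ZNF384 value was -0.61 (adjusted p = 0.0283).

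Of 19 core and activator genes of the constitutive proteasome tested, 9 fell and 1 rose with TCF3-ZNF384 relative to wild-type ZNF384, where 23.4% and 22.2% of all tested genes did. With TAF15-ZNF384 10 fell and none rose, where 17.9% and 15.4% did. The medians were -0.36 and -0.33 on the log2 scale. Psmb5, whose product is the constitutive counterpart of LMP7, averaged 57.5 ± 1.6 CPM with TCF3-ZNF384, 59.1 ± 4.4 CPM with TAF15-ZNF384, 90.3 ± 15 CPM with wild-type ZNF384 and 76.0 ± 7.7 CPM with the empty vector (SD, n = 2 each). Psme4, which encodes the activator PA200, was the one that rose, by 0.54 ± 0.09 over wild-type ZNF384 with TCF3-ZNF384 (adjusted p = 0.000267). Set against 100 reads of Psmb5, Psmb8 had 50.2 and 57.5 reads with TCF3-ZNF384, 63.9 and 65.7 with TAF15-ZNF384, 39.8 and 51.1 with wild-type ZNF384, and 42.5 and 43.0 with the empty vector. TAF15-ZNF384 libraries had the highest ratio for this pair, and TCF3-ZNF384 overlapped with wild-type ZNF384. Psmb9 per 100 Psmb6 reads was 546 and 522, 717 and 538, 698 and 749, and 644 and 670 in the same order of groups. Psmb10 per 100 Psmb7 reads was 10.7 and 8.02, 8.66 and 8.90, 7.4 and 9.92, and 8.43 and 6.61. In both of these pairs TAF15-ZNF384 overlapped with wild-type ZNF384. The ratios were not tested.

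H60b (chr10:21878392-22008655, plus strand) was the member with the largest difference and was counted almost only with TCF3-ZNF384. NKG2D ligands such as H60b are induced on stressed or transformed cells and mark them for NK cells. H60b had 84 and 88 counts with TCF3-ZNF384, 0 and 0 with TAF15-ZNF384, 0 and 2 with wild-type ZNF384, and 0 and 0 with the empty vector. In CPM this was 7.73 and 4.74 with TCF3-ZNF384 and 0.0874 in the wild-type library with 2 counts. With 3 counts over a group taken as the limit that 0 allows, H60b was at least 98.1-fold higher with TCF3-ZNF384 than with the empty vector and at least 36.3-fold higher than with TAF15-ZNF384. Over wild-type ZNF384 the ratio was 194 (95% exact binomial interval 53.0 to 1617). The interval and the limits cover counting error only, and the limit was 0.161 CPM for the TAF15-ZNF384 libraries and 0.0596 CPM for the empty vector. Per kilobase of exon, H60b reached 5.14 CPM per kb with TCF3-ZNF384, below the 7.46 of Tapbp, the lowest of the other members in that group.

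**Figure D4:**
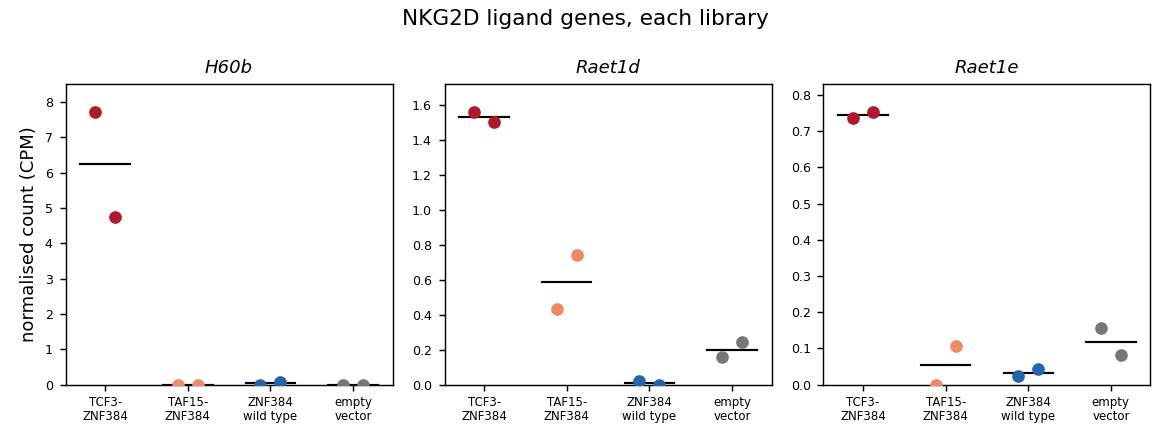
CPM of H60b, Raet1d and Raet1e in each library, with group means as lines and an axis of its own for each gene. The TCF3-ZNF384 libraries are the highest in all 3 panels, and the TAF15-ZNF384 libraries are at 0 for H60b but above the controls for Raet1d.

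Of 8 other NKG2D ligand genes listed, 3 were in the table and 2 were tested, Raet1d and Raet1e, which encode RAE-1 proteins. Both reached the filter on low counts through the TCF3-ZNF384 libraries. A difference of TCF3-ZNF384 from another group thus follows from the filter and is given as a ratio of counts, with no test. Raet1d had 17 and 28 counts with TCF3-ZNF384, 4 and 7 with TAF15-ZNF384, 1 and 0 with wild-type ZNF384, and 4 and 6 with the empty vector. Its ratio of TCF3-ZNF384 to the empty vector was 7.70 (interval 3.83 to 17.1). Raet1d fell with wild-type ZNF384 relative to the empty vector, with a ratio of 0.0758 (interval 0.00175 to 0.532, adjusted p = 0.0456). This call rests on the few counts given and was lost when replicate number was added to the fit. Its ratio of TAF15-ZNF384 to the empty vector was 2.97 (interval 1.15 to 7.80), and edgeR did not call it.

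Raet1e had 8 and 14 counts with TCF3-ZNF384, 0 and 1 with TAF15-ZNF384, 1 and 1 with wild-type ZNF384, and 4 and 2 with the empty vector. Its ratio of TCF3-ZNF384 to the empty vector was 6.27 (interval 2.47 to 18.9). H60c had 0 counts in all 8 libraries. H60b and Raet1d lie in 1 stretch of chromosome 10 in GENCODE vM1, which has a long H60b transcript (21878392-22008655) and a short one (21993152-22008655). RefSeq upstream windows of Raet1e matched directly before the start of the long one (21878125-21878374) and before the vM1 gene Raet1c (21893053-21893302). The annotation the authors counted on is not given in the sources used here, so how reads were divided between H60b and Raet1e is not known. No 50-base stretch of H60b coding transcripts was shared with another gene, against 38.7% for Raet1d, all shared with Raet1c.

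The summed CPM of other cell types' markers averaged highest with TCF3-ZNF384 in each list. The 6 T and NK cell markers summed to 0.644 to 1.08 CPM with TCF3-ZNF384, 0.317 to 0.870 with TAF15-ZNF384, 0.0437 to 0.0688 with wild-type ZNF384 and 0.0806 to 0.117 with the empty vector. Most of this was Klrb1c, except in empty vector replicate 2, where Klrb1c had 0 counts. Cd3e and Ncr1, which define T and NK cells, had at most 1 count in a library, and both were at 0 in TAF15-ZNF384 and wild-type libraries. The 6 myeloid markers summed to 1.29 CPM with TCF3-ZNF384, 0.317 to 0.761 with TAF15-ZNF384, 0.0874 to 0.138 with wild-type ZNF384 and 0.323 to 0.391 with the empty vector, and most of the TCF3-ZNF384 sum was Itgam, with 11 and 17 counts with TCF3-ZNF384, 1 and 1 with TAF15-ZNF384, 2 and 1 with wild-type ZNF384, and 0 and 1 with the empty vector. Csf1r had at most 1 count in a fusion library. The 4 dendritic cell markers summed to 18.8 to 19.8 CPM with TCF3-ZNF384, 4.35 to 4.76 with TAF15-ZNF384, 0.612 to 0.734 with wild-type ZNF384 and 2.39 to 2.90 with the empty vector, nearly all of it Flt3, a receptor of early progenitors. Itgax had at most 1 count in a fusion library. The 4 stromal markers summed to 0.700 to 1.01 CPM with TCF3-ZNF384, 0.317 to 0.435 with TAF15-ZNF384, 0.138 to 0.306 with wild-type ZNF384 and 0.352 to 0.887 with the empty vector. The part of these markers in the H60b and class I results was not tested.

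Among regulators of class I transcription, Nfkb2, Relb, Irf7 and Irf1 were lowest with wild-type ZNF384. Of 24 listed and tested genes, 6 fell and 2 rose with wild-type ZNF384 relative to the empty vector, where 9.87% and 10.8% of all tested genes did, and 16 were not called. With TCF3-ZNF384 over wild-type ZNF384 9 rose and 3 fell (22.2% and 23.4% of all tested genes), and with TAF15-ZNF384 over wild-type ZNF384 8 rose and 1 fell (15.4% and 17.9%). Irf8, another interferon regulatory factor gene, went the other way and rose by 0.38 ± 0.11 with wild-type ZNF384 over the empty vector (adjusted p = 0.0266). Nfkb2, which encodes the NF-kB subunit p100/p52, had 23.2 and 24 CPM with TCF3-ZNF384, 24.5 and 20.9 CPM with TAF15-ZNF384, 4.95 and 4.94 CPM with wild-type ZNF384, and 14.8 and 17.3 CPM with the empty vector. Relb, its usual partner, had 13.6 and 15.6 CPM with TCF3-ZNF384, 12.3 and 9.31 CPM with TAF15-ZNF384, 1.31 and 2.05 CPM with wild-type ZNF384, and 7.16 and 8.87 CPM with the empty vector. In both genes the wild-type libraries lay far below the rest, and the fusions lay above the empty vector. Nfkb2 fell by 1.69 ± 0.14 and Relb by 2.31 ± 0.23 with wild-type ZNF384 relative to the empty vector (adjusted p = 3.29e-06 and 1.51e-05).

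Irf7, an interferon regulatory factor, had 4.51 and 5.98 CPM with TCF3-ZNF384, 6.52 and 6.98 CPM with TAF15-ZNF384, 0.665 and 0.612 CPM with wild-type ZNF384, and 5.12 and 6.65 CPM with the empty vector. Irf1, an activator of class I genes that was named after its values were seen, averaged 55.1 ± 9.2, 64.1 ± 3.4, 24.4 ± 0.94 and 54.9 ± 12 CPM in the same order of groups (SD, n = 2 each). Irf7 and Irf1 thus shared the low of wild-type ZNF384 and neither was called with a fusion over the empty vector. Nlrc5, the transactivator dedicated to class I genes, had 874 and 938 CPM with TCF3-ZNF384, 1086 and 1028 CPM with TAF15-ZNF384, 749.7 and 873 CPM with wild-type ZNF384, and 822 and 871 CPM with the empty vector. It rose by 0.38 ± 0.10 with TAF15-ZNF384 over wild-type ZNF384 (adjusted p = 0.0104), where its log2 fold change with TCF3-ZNF384 was 0.16 ± 0.10 (adjusted p = 0.212). With wild-type ZNF384 over the empty vector Nlrc5 had -0.06 ± 0.10 (adjusted p = 0.705). The log2 CPM of Nlrc5 had a correlation of 0.952 with that of Tap1 over the 8 libraries, among the 5 highest of all tested genes with Wash1 (0.968), Zfp52 (0.953), Dab2ip (0.942) and Aph1b (0.940), a description over libraries that share their groups.

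Interferon-induced genes did not move as a block with the chains. Of 33 listed, 26 were tested, and with wild-type ZNF384 over the empty vector 7 rose and 3 fell (10.8% and 9.87% of all tested genes), with a median log2 fold change of 0.38 where the chains had fallen. With TCF3-ZNF384 over the empty vector 11 rose and 3 fell (16.2% and 17.0% of all tested genes), led by guanylate binding protein genes, and with TAF15-ZNF384 over the empty vector only Gbp9 was called. Gbp9 had 35.3 and 34.1 CPM with TCF3-ZNF384, 11.9 and 13.6 CPM with TAF15-ZNF384, 5.59 and 10.005 CPM with wild-type ZNF384, and 4.69 and 5.36 CPM with the empty vector. Tgtp1, a T cell-specific GTPase gene, went another way, at 1.64 ± 0.11, 3.48 ± 0.61, 0.50 ± 0.22 and 4.65 ± 0.66 CPM in the same order of groups (SD, n = 2 each), and Ifi47 was highest with wild-type ZNF384 (115 ± 2.9 CPM, against 55.1 ± 5.0 CPM with the empty vector).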

How the data were processed

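The deposited values are raw counts of reads per gene. The authors counted with HTSeq 0.6.1p1 and used build mm9, per the submitters' processing notes; per the labels' protocols, RNA was isolated with RNeasy and libraries were stranded total RNA. The aligner, the annotation and the strand setting are not given in the sources used here. In R 4.3.3, edgeR 4.0.16 (filterByExpr by group, TMM, robust quasi-likelihood, 1 term per group, 8 libraries, 4 residual degrees of freedom) tested 12970 genes. CPM use TMM-scaled library sizes. Alternatives were DESeq2 1.42.0, its size factors in edgeR, limma-voom 3.58.1, other filters (none, or a floor of 2 CPM reached by 2 libraries), fitting 2 groups alone, a replicate block, removal of 5 non-coding genes, and leaving out each library. The methods were tested on simulated data.

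The members and lists were chosen with earlier results of these data known. The genes named were all members, Zfp384, up to 3 per direction with the smallest adjusted p in a list, and the 5 genes most like H60b and Tap1. Annotation is GENCODE vM1 on mm9, matched by symbol. Intervals and the limit of 3 counts cover counting error only. TAF15-ZNF384 libraries had 9381954 and 9963494 counts, so their low counts are the least precise. One pre-B cell marker is not reported here.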

Additional observations from a re-analysis of the deposited data

How the results depend on the processing

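Over the gene by comparison values that passed the threshold under at least 1 setting, and H2-K1, H2-D1 and B2m between the fusions, 538 alternative values kept direction and side of the threshold, 40 passed it only in the alternative, 25 passed it only as reported and 5 changed sign. The sign changes were all in values that did not pass: TCF3-ZNF384 minus TAF15-ZNF384 without TCF3-ZNF384 replicate 1 for H2-K1 (0.11; -0.16 without replicate 2) and B2m (0.034; -0.093 without replicate 2), without TAF15-ZNF384 replicate 2 for B2m (0.026), Tap1 with wild-type ZNF384 over the empty vector without ZNF384 wild-type replicate 1 (0.032; -0.33 without replicate 2), and Tap2 with TAF15-ZNF384 over wild type without ZNF384 wild-type replicate 2 (0.039; -0.30 without replicate 1). Of the 10 members, those called with TAF15-ZNF384 over the empty vector were 1 with no filter on low counts, 2 in a fit of the groups compared and 2 with the replicate block (H2-K1 and B2m), and those between the fusions were 2 in a fit of the groups compared. That fit called 2746 genes with TAF15-ZNF384 over the empty vector and 2548 between the fusions. Leaving out 1 library at a time gave 1 to 6 members and 2501 to 5372 genes for TCF3-ZNF384 over the empty vector, 0 to 2 and 404 to 2783 for TAF15-ZNF384 over the empty vector, 1 to 4 and 1064 to 3814 for wild-type ZNF384 over the empty vector, 6 to 9 and 3866 to 6558 for TCF3-ZNF384 over wild type, 3 to 5 and 2158 to 5333 for TAF15-ZNF384 over wild type, and 1 to 2 and 371 to 2361 between the fusions. The lone library of a group was then taken to vary like the other groups. The cause of these moves was not tested. Same-numbered libraries deviated from their group means with correlations of 0.0136 to 0.225 between groups, all positive. With only 2 numbers, this cannot decide whether same-numbered libraries share a batch. H2-D1 and B2m had more CPM in replicate 2 than in replicate 1 in every group, and H2-K1 did in every group but TAF15-ZNF384. Whether replicates were paired was not tested. With the block, the members' calls gained were H2-K1 and B2m with either fusion over the empty vector, Psmb8 with wild-type ZNF384 over the empty vector, and Psmb10 with either fusion over wild-type ZNF384, and none was lost; Raet1d with wild-type ZNF384 over the empty vector was then not called. The TAF15-ZNF384 group had the fewest counts in all, which limits what can be said of H60b there to the bound given.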

Other observations

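The genes whose log2 CPM was most like that of H60b over the 8 libraries were Rnase6 (correlation 0.997), Gpr1 (0.992), Ly6g6f (0.992), Usp32 (0.992) and Gucy1b2 (0.989). All but Usp32 had group means of 0 in the TAF15-ZNF384 and empty vector libraries. Rnase6 averaged 1.61 CPM with TCF3-ZNF384 and 0.0437 CPM with wild-type ZNF384. Usp32, a deubiquitinase gene, averaged 137 CPM with TCF3-ZNF384, 71.8 CPM with TAF15-ZNF384, 74.8 CPM with wild-type ZNF384 and 70.5 CPM with the empty vector. These likenesses rest on 1 group that differs from 3, and are a description of these libraries.

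Surface ligands that NK and T cells read besides class I and NKG2D ligands, 13 listed and 7 tested, were called in both directions. Over the empty vector 2 rose and 2 fell with TCF3-ZNF384, 1 fell with TAF15-ZNF384, and 3 rose and 2 fell with wild-type ZNF384. Of all tested genes 33.3%, 11.0% and 20.6% were called in these comparisons, so 1 of 7 with TAF15-ZNF384 is near the background. Clec2i, a ligand gene of an NKR-P1 receptor, had 59.6 and 66.7 CPM with TCF3-ZNF384, 25.4 and 28.9 CPM with TAF15-ZNF384, 20.9 and 32.5 CPM with wild-type ZNF384, and 43.5 and 46.7 CPM with the empty vector. It rose with TCF3-ZNF384 over the empty vector and fell with TAF15-ZNF384 and with wild-type ZNF384. Icam1, an adhesion ligand of T and NK cells, had 4.88 and 7.0 CPM with TCF3-ZNF384, 15.3 and 13.1 CPM with TAF15-ZNF384, 7.70 and 9.35 CPM with wild-type ZNF384, and 15.1 and 16.0 CPM with the empty vector, and fell with TCF3-ZNF384 relative to both TAF15-ZNF384 and the empty vector. Cd47, which encodes an inhibitory signal to phagocytes, averaged 66.2 ± 1.0, 62.0 ± 4.6, 109 ± 5.7 and 69.9 ± 7.4 CPM in the same order of groups (SD, n = 2 each) and was called higher with wild-type ZNF384 over the empty vector. Of 11 class II genes listed, 6 were tested. Over the empty vector 1 rose and 1 fell with TCF3-ZNF384, 1 fell with TAF15-ZNF384, and 2 fell with wild-type ZNF384. Of all tested genes 33.3%, 11.0% and 20.6% were called in these comparisons. The median log2 fold changes of the 6 were 0.50, 0.28 and -0.27. H2-Oa was the one that rose with TCF3-ZNF384, by 0.68 ± 0.22 (edgeR adjusted p = 0.0262). H2-Eb2, a class II beta chain gene, fell with all 3 constructs relative to the empty vector, by 0.91 ± 0.16 with TCF3-ZNF384, 0.52 ± 0.16 with TAF15-ZNF384 and 0.78 ± 0.15 with wild-type ZNF384 (log2 fold change ± SE, edgeR adjusted p = 0.000609, 0.049 and 0.00252).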
